A study of Mus musculus with 16 samples.

Results

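The nuclear genes of the mitochondrial respiratory chain were examined as a group of 54 named genes, listed by name for their place in the chain. They comprise 34 subunits of complex I, 4 of complex II, 6 of complex III and 9 of complex IV, and Cycs, which encodes cytochrome c. For 51 of the 54 the array annotation names at least 1 probe (77 probes in all). A probe was kept where it was detected above the negative controls (p under 0.05) on 8 or more of 16 arrays, which left 64 probes for 47 genes, of 10624 genes measured in the whole series.

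The respiratory chain is a series of protein complexes in the inner mitochondrial membrane. Complex I takes electrons from NADH and complex II takes them from succinate; both pass them through ubiquinone to complex III, cytochrome c and complex IV, where oxygen is reduced. Complexes I, III and IV pump protons, and ATP synthase uses the resulting gradient. Most subunits come from nuclear genes and a few core subunits from the mitochondrial genome. Developing neurons depend increasingly on this pathway as they mature, while neural progenitors rely more on glycolysis.

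Whole brain RNA of mouse embryos at embryonic day 18 had been hybridised to single-colour Illumina bead arrays, 8 with HeCo mutant and 8 with wild-type brain, all on an NOR/CD-1 background. HeCo mice carry a spontaneous mutation of Eml1, the gene of a microtubule-associated protein, and form a subcortical band heterotopia; the labels do not give zygosity or sex. Nor do they state whether samples are separate animals, and p-values therefore measure only how these samples vary. Arrays are called here by group and by the number in their title, which runs from 1 to 16 in blocks: wild type 1 to 4, HeCo 5 to 8, wild type 9 to 12 and HeCo 13 to 16. What these numbers stand for is not given in the labels.

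The genotype labels were borne out by the brighter Eml1 probe, which had a log2 signal of 8.23 to 8.71 in wild type and 4.40 to 4.67 in HeCo and was detected on 8 and 0 arrays. Between 17694 and 19553 of 45281 probes were detected per array, the fewest on wild type 10 and the most on HeCo 6. Precision throughout is limited by the 8 arrays per group. HeCo 7 and HeCo 16 stood apart through low markers of diencephalon, midbrain and hindbrain, with a mean over 14 genes that was -2.36 and -2.12 (log2) from the wild-type mean. Wild type 1 and HeCo 6 stood apart in the respiratory chain genes themselves, as described further on. Results are therefore also given without each of these pairs. In bulk tissue, fewer cells of a kind and less RNA per cell cannot be told apart.

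Many respiratory chain genes are known targets of NRF1, of GABPA and of YY1, and their promoters were searched for short matches to the sites of these factors. RefSeq promoter windows (GRCm38.p6, 250 bases before to 50 after the annotated start) were at hand for 45 of the 54 genes and for 27025 genes in all, and both strands were read. The NRF1-type letters GCATGCGC were in 7 of the 45 windows (15.6%, against 2.8% of all windows). The ETS-type letters CCGGAAG, which GABPA can bind, were in 9 (20%, against 9.12%), and AAGATGGC, a YY1 match, was in 7 (15.6%, against 2.88%). At least 1 of these was in 21 windows (46.7%, against 13.8%). A match is a description of these letters and not an established site.

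The windows of 6 genes to which the results return are printed from 100 bases before to 30 bases after the start, 5′ to 3′ on the gene's strand, with a match in capitals. They are shown for the gene with the most negative difference between genotypes (Ndufa11), for 3 that differ along the array titles (Ndufb7, Uqcrh and, in the opposite direction, Ndufv1), for Cox6a1 of complex IV and for Cycs. They lie at chr17:56717662-56717791 on the plus strand (Ndufa11), chr8:83566658-83566787 on the plus strand (Ndufb7), chr4:116075041-116075170 on the minus strand (Uqcrh), chr5:115348929-115349058 on the minus strand (Cox6a1), chr19:4012726-4012855 on the minus strand (Ndufv1) and chr6:50566540-50566669 on the minus strand (Cycs). Capitals mark GCATGCGC in Cycs and in Ndufa11, where it is read on both strands with an overlap, CCGGAAG in Ndufb7 and its reverse complement in Uqcrh and Cox6a1. The window of Ndufv1 held none of the 3 letter strings.
Ndufa11: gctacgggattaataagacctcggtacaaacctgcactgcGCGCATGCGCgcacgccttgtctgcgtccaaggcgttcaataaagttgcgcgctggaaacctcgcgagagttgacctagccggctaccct
Ndufb7: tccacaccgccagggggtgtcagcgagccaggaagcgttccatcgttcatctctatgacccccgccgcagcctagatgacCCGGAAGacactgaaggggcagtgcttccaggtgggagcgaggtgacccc
Uqcrh: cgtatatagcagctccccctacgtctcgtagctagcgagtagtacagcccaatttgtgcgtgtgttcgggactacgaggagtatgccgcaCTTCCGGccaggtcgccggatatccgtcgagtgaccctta
Cox6a1: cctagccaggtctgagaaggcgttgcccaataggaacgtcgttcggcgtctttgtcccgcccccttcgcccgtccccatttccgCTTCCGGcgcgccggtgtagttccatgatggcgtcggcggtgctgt
Ndufv1: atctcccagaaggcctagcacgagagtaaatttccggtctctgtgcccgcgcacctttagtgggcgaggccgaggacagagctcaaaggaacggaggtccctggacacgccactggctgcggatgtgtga
Cycs: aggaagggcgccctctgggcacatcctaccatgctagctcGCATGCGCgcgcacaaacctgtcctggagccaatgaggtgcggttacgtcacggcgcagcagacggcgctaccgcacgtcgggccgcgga

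No respiratory chain gene passed the test between HeCo and wild type. Of the 47 measured genes 0 had a limma adjusted p under 0.05, where 6 of 10624 genes did (0.0565%), and 0 had an unadjusted p under 0.05, where 749 did (7.05%). The differences were small, from -0.19 for Ndufa11 to 0.24 for Uqcrq on the log2 scale, the latter corresponding to a 1.18-fold difference. Without background correction, or with the authors' normalized values, Uqcrq had 0.12. Most leaned to one side: 36 of 47 had a lower mean in HeCo and 11 a higher one, where 51.8% of all genes were below 0 and 48.2% above. The median over the 47 was -0.0766, against -0.00515 over all genes. All 47 were read on the same arrays, so a count of genes does not show how far arrays vary. Relative to the wild-type mean, the mean over the 47 ran from -0.23 to 0.17 on wild-type and from -0.40 to 0.14 on HeCo arrays. The HeCo arrays had a mean of -0.06, beside an SD of 0.12 over the wild-type arrays. With median scaling of the arrays, 28 of the 47 were below 0, with a median of -0.0248 against 0.0483 over all genes. The 95% interval of the difference lay within ±0.5 for 46 of the 47 (96% of all genes) and within ±0.25 for 18 (43.5% of all genes). For 0 of the 47 were the HeCo and wild-type arrays without overlap (0.113% of all genes).

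**Figure D1:**
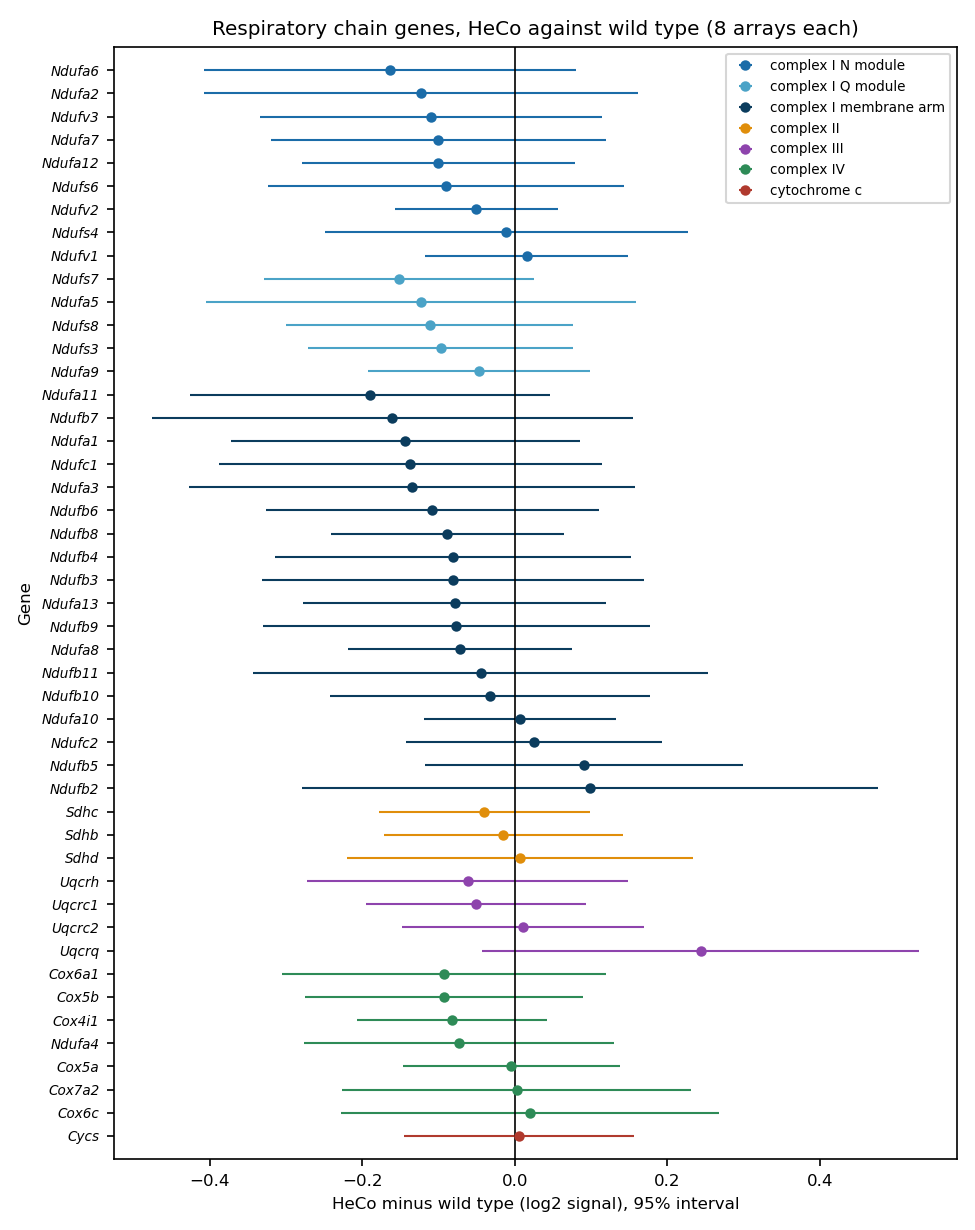
Difference between HeCo and wild type (x axis, log2 signal, 8 arrays each) for each of the 47 measured genes (y axis), coloured by complex; points are fitted differences and bars 95% intervals. All 47 intervals include 0, and 36 points lie below 0.

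The lean was largest in the parts of complex I outside the membrane and smallest in complexes II and III. The N module, which binds and oxidises NADH, had a median difference of -0.100 over 9 measured genes, 8 of them negative. The Q module, which carries electrons to ubiquinone, had a median of -0.112 over 5 genes, all 5 negative. The membrane arm, which houses the proton pumps, had a median of -0.080 over 18 genes, 14 of them negative. The medians were -0.015 for complex II (3 genes, 2 negative), -0.0204 for complex III (4 genes, 2 negative) and -0.073 for complex IV (7 genes, 5 negative). No test of these lists against each other was made.

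In the N module the smallest p-values belonged to Ndufa6, Ndufa12 and Ndufv3, which are accessory subunits. The log2 signal of Ndufa6 ran from 11.42 through a median of 11.84 to 12.03 in wild type and from 11.03 through 11.63 to 12.01 in HeCo. Its groups overlapped, though HeCo 6 (11.03) and HeCo 5 (11.38) lay below wild type 1, the lowest wild-type array (difference -0.16, SE 0.12, limma adjusted p = 0.81). Ndufa12 ran from 11.67 through 11.97 to 12.11 in wild type and from 11.50 through 11.86 to 12.10 in HeCo (difference -0.10, SE 0.09, limma adjusted p = 0.849). Of the 8 HeCo arrays 6 were below the wild-type mean of Ndufa12. Ndufv3 had a difference of -0.11 (SE 0.11, limma adjusted p = 0.86), with wild type 1 (11.93) and HeCo 6 (11.84) well below all other arrays, which started at 12.29. The core subunit Ndufv2, which carries an iron-sulfur cluster, was the steadiest gene of all 47, with an SD of 0.0579 over the 8 wild-type arrays and a difference of -0.05 (95% interval -0.16 to 0.06). Ndufv1, the core subunit that binds NADH and flavin, had a difference of 0.02 (95% interval -0.12 to 0.15).

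The Q module held the smallest p-value of all 47 genes. Ndufs7, whose iron-sulfur cluster hands electrons to ubiquinone, ran from 11.28 through 11.48 to 11.69 in wild type and from 10.87 through 11.44 to 11.54 in HeCo. The lowest HeCo arrays were HeCo 6 (10.87) and HeCo 15 (11.08), both below every wild-type array, while the other HeCo arrays lay within the wild-type range (difference -0.15, SE 0.09, unadjusted p = 0.0887, limma adjusted p = 0.749). Ndufs8, another carrier of iron-sulfur clusters, had -0.11 (95% interval -0.30 to 0.08, limma adjusted p = 0.841). The core subunit Ndufs3 had -0.10 (95% interval -0.27 to 0.08, limma adjusted p = 0.849).

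The membrane arm contained both the most negative difference and the most variable genes. Ndufa11, an accessory subunit at the junction of the proton-pumping modules, ran from 10.48 through 10.90 to 11.30 in wild type and from 10.17 through 10.73 to 11.05 in HeCo. HeCo 6 alone lay below all wild-type arrays, and wild type 9 and 10 lay above all HeCo arrays (difference -0.19, SE 0.11, limma adjusted p = 0.766). Ndufa1 had -0.14 (SE 0.11, limma adjusted p = 0.828) and Ndufb8 -0.09 (SE 0.07, limma adjusted p = 0.843). The largest SDs among the wild-type arrays were those of the accessory subunits Ndufb2 (0.403), Ndufb11 and Ndufb7. Ndufb2 ran from 6.31 through 7.01 to 7.58 in wild type and from 6.08 through 7.27 to 7.55 in HeCo, with wild type 1 and HeCo 6 lowest (difference 0.10, SE 0.18). Ndufb7 ran from 8.44 through 9.03 to 9.34 in wild type and from 8.12 through 8.75 to 9.32 in HeCo (difference -0.16, SE 0.15), and Ndufb11 had -0.04 (SE 0.14). Without background correction the differences of Ndufb2 and Ndufb11 were 0.07 (SE 0.12) and -0.03 (SE 0.07).

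For complex II, which also belongs to the tricarboxylic acid cycle, the median of the 3 measured genes lay closer to 0 than that of any other complex. Sdhc, a membrane anchor, had -0.04 (95% interval -0.18 to 0.10), the iron-sulfur subunit Sdhb had -0.02 (95% interval -0.17 to 0.14), and the other anchor Sdhd had 0.01 (95% interval -0.22 to 0.23). With median scaling in place of quantile normalization, Sdhb and Sdhc stood at 0.05 and 0.02, where the median over all genes was 0.0483. Sdhc was also among the steadiest genes, with an SD of 0.0921 in wild type. Sdha, the catalytic subunit, was not measured, since its only probe was detected on 0 arrays.

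Complex III held the largest positive difference of the 47 genes, with 2 of its 4 measured genes above 0. Uqcrq, a small subunit of the complex, ran from 5.39 through 5.67 to 6.32 in wild type and from 5.33 through 6.02 to 6.32 in HeCo, and 7 of 8 HeCo arrays were above the wild-type mean (difference 0.24, SE 0.14, unadjusted p = 0.0914, limma adjusted p = 0.75). The groups overlapped fully, with wild type 2 as high as HeCo 16 and HeCo 6 lowest of all. Within titles 9 to 16 the difference was 0.55 (unadjusted p = 0.00178, limma adjusted p = 0.719), and within titles 1 to 8 it was -0.07. Without background correction its difference was 0.12 (SE 0.07, limma adjusted p = 0.745). In the corrected values its interval reached 0.53, the highest bound among the 47. This signal comes from a dim probe annotated to a cDNA clone, while the other Uqcrq probe was detected on 0 arrays. The core protein Uqcrc1 had -0.05 (SE 0.07), and 0.0015 after median scaling, where the median over all genes was 0.0483. The hinge protein Uqcrh had -0.06 (SE 0.10).

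Complex IV showed the lean of complex I in smaller size. Cox4i1, a regulatory subunit in its ubiquitous form, ran from 13.40 through 13.63 to 13.69 in wild type and from 13.30 through 13.54 to 13.63 in HeCo (difference -0.08, SE 0.06, limma adjusted p = 0.814). HeCo 15 (13.30) and HeCo 6 (13.38) lay below every wild-type array, and 6 of 8 HeCo arrays were below the wild-type mean. Cox5b had -0.09 (SE 0.09, limma adjusted p = 0.855) and Cox6a1 -0.09 (SE 0.10, limma adjusted p = 0.865), both structural subunits. Cycs, the mobile carrier between complexes III and IV and a trigger of apoptosis when released, ran from 11.32 through 11.48 to 11.79 in wild type and from 11.26 through 11.50 to 11.68 in HeCo. Its groups coincided (difference 0.01, 95% interval -0.15 to 0.16), and its highest wild-type value was on wild type 1, an array among the lowest 2 for 19 of the 32 complex I genes.

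No value is given for 7 of the 54 genes. Ndufs5, Uqcrb and Cox8a have no probe in the annotation used. The single probes of Ndufs1, a large core subunit of the N module, and of Sdha were detected on 0 arrays, and that of Cox7b on 6. The Rieske iron-sulfur protein gene Uqcrfs1 has 2 probes, detected on at most 3 arrays. Of the measured genes 34 rested on 1 kept probe and 13 on several (30 probes). The probes of 9 of these 13 had 1 sign and those of 4 had mixed signs, and of all 64 kept probes 49 had a negative difference, with a lowest unadjusted p of 0.0887. Respiratory chain genes have processed pseudogenes, and whether a probe also matches one was not checked.

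Wild type 1 and HeCo 6 were the lowest arrays for complexes I and IV. The mean of the 32 complex I genes, relative to the wild-type mean, was -0.30 on wild type 1 and -0.46 on HeCo 6, and the other 14 arrays lay between -0.18 and 0.22. For complex IV the values were -0.31 and -0.44, the others lying between -0.13 and 0.12. HeCo 6 was the lowest of the 16 arrays for 27 of the 47 genes, and wild type 1 was among the lowest 2 for 24. In complex II these arrays stood at 0.10 and -0.14, in complex III at 0.10 and -0.12, and for Cycs at 0.30 and 0.12. Wild type 10 was the highest array for 17 of the 47.

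**Figure D2:**
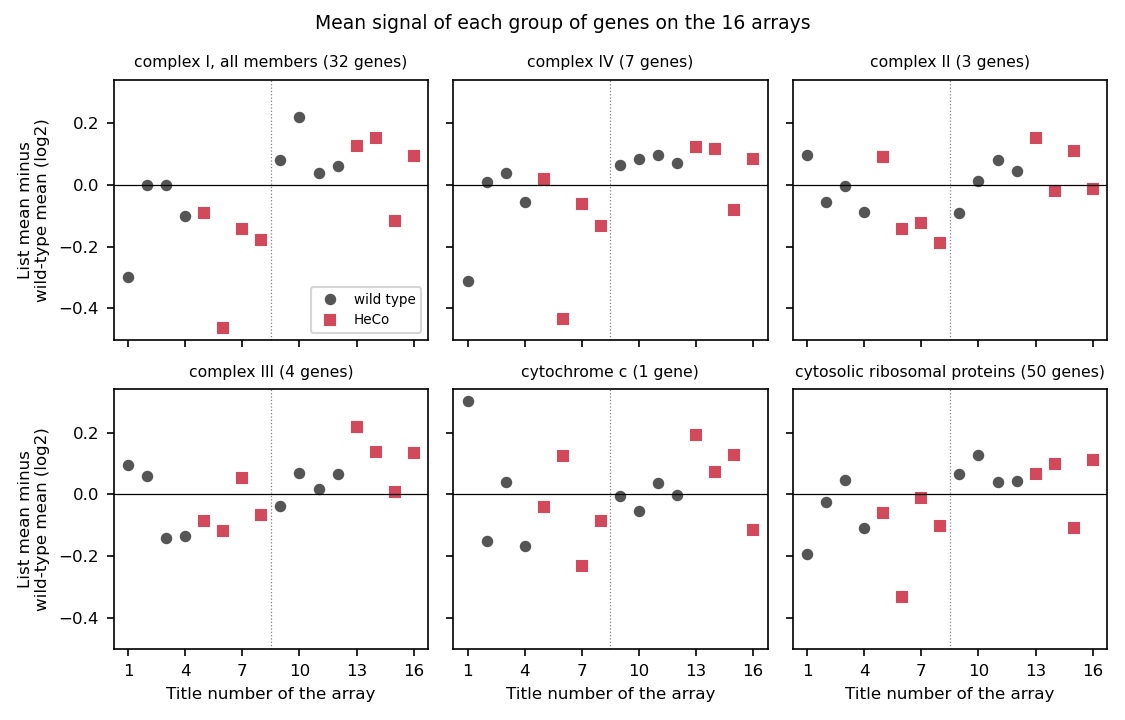
Mean log2 signal of 6 groups of genes on each of the 16 arrays (y axis, relative to the wild-type mean) by title number (x axis), with wild type as circles and HeCo as squares; the dotted line separates titles 1 to 8 from 9 to 16. Wild type 1 and HeCo 6 are low for complex I, complex IV and ribosomal proteins, and not for cytochrome c.

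Some other gene groups were low on these arrays too, and others were not. The 12 tricarboxylic acid cycle genes had a mean of 0.04 on wild type 1 and 0.07 on HeCo 6. The 7 genes of the mitochondrial genome had 0.12 and 0.06. The 50 measured cytosolic ribosomal protein genes had a mean of -0.19 on wild type 1 and -0.33 on HeCo 6, and the 17 ATP synthase genes had -0.21 and -0.36. Microglial markers (6 genes) had -0.23 and -0.26, and skeletal muscle markers (2 genes) -0.32 and -0.66, in both cases the lowest values of the 16 arrays. HeCo 6 had the most probes detected of all arrays. Their part in the low values was not tested. Without wild type 1 and HeCo 6, a choice made after the values were seen, the median difference over the 47 genes was -0.063 and still 0 genes passed. The median was -0.0266 without HeCo 6 alone and -0.1042 without wild type 1 alone. Without HeCo 7 and HeCo 16 the median was -0.0743, with 37 genes negative and 0 past the threshold.

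The array titles gave calls among the complex I genes, where genotype gave none. The arrays titled 9 to 16 and those titled 1 to 8 each hold 4 wild-type and 4 HeCo brains, and a term for the title range was added to the genotype fit after the values had been seen. Of the 47 genes 15 were higher in titles 9 to 16 at a limma adjusted p under 0.05 (31.9%), where 206 of all genes were (1.94%), and 1 was lower, so that 16 were called in all (2.55% of all genes). Complex I contributed 13 of the 15, and the others were Uqcrh and Ndufa4, a subunit now assigned to complex IV. The 15 differences ran from 0.23 (Ndufa8) to 0.58 (Ndufb7). The title term was larger in size than the genotype term for 39 of the 47 genes, against 56.5% of all genes.

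Ndufb7 had the largest title difference. It stood at 8.44, 8.78, 8.99 and 8.55 on wild type 1 to 4 and at 8.63, 8.12, 8.52 and 8.55 on HeCo 5 to 8. On wild type 9 to 12 it stood at 9.20, 9.34, 9.15 and 9.08, and on HeCo 13 to 16 at 9.10, 9.32, 8.88 and 9.12. Only HeCo 15 lay below any array of the lower titles, namely wild type 3 (title difference 0.58, SE 0.09, limma adjusted p = 0.00386). Within wild type the title difference was 0.50 and within HeCo it was 0.65. Ndufa5 of the Q module differed by 0.46 (SE 0.09, limma adjusted p = 0.0136), Ndufa11 by 0.37 (SE 0.08, limma adjusted p = 0.0233) and Uqcrh by 0.39 (SE 0.06, limma adjusted p = 0.00386).

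Ndufv1 was the exception. It was lower in titles 9 to 16, with a title difference of -0.19 (SE 0.05, limma adjusted p = 0.0364), of -0.17 within wild type and -0.21 within HeCo. Across all 47 genes 38 were higher in titles 9 to 16 in both genotypes, against 30.3% of all genes.

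**Figure D3:**
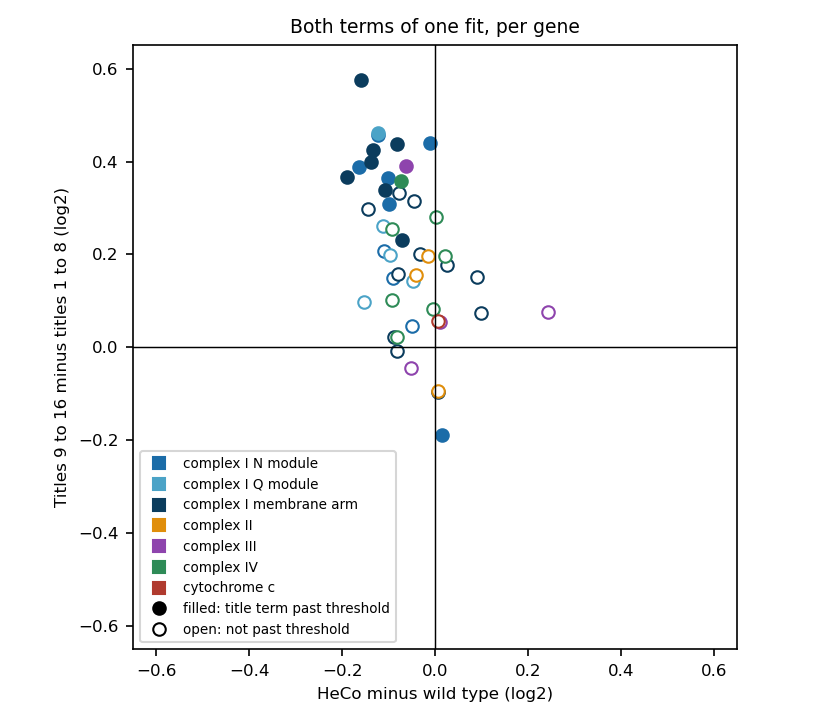
Both terms of one fit for each of the 47 genes: HeCo minus wild type (x axis, log2) and titles 9 to 16 minus titles 1 to 8 (y axis, log2), coloured by complex and filled where the title term had a limma adjusted p under 0.05. Most points lie in the upper left, further from 0 along the title axis than along the genotype axis, and 1 filled point, Ndufv1, lies below 0.

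Other lists held genes past the threshold for the title term too. Of these 9 of 50 ribosomal protein genes and 6 of 17 ATP synthase genes were higher in titles 9 to 16 (13 and 3 without wild type 1 and HeCo 6), while 0 of 14 glycolysis genes and 0 of 7 genes of the mitochondrial genome were. All 16 called respiratory chain genes were also called without wild type 1 and HeCo 6, where 17 were higher (36.2%, against 2.33% of all genes). The samples carry another number in their descriptions, and a term for descriptions 9 to 16 against 1 to 8 gave 0 called genes of 10624 (125 at an unadjusted p under 0.05, limma). With the title term in the fit, Ndufa11 alone had an unadjusted p under 0.05 between genotypes (0.0334, limma adjusted p = 0.61; 8.05% of all genes). What set the title ranges apart was not tested.

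The median difference between genotypes was negative within both title ranges. Within titles 1 to 8 the median difference between HeCo and wild type was -0.0963, with 43 of 47 genes negative and 1 at an unadjusted p under 0.05 (3.14% of all genes). Within titles 9 to 16 it was -0.0376, with 32 negative and 2 at an unadjusted p under 0.05 (6.77% of all genes). These 2, Uqcrq (0.55) and Ndufb2 (0.32), were higher in HeCo. The 1 within titles 1 to 8, Ndufb9 (-0.26), was lower in HeCo. In either title range 0 of the 47 passed. Negative within both were 28 genes, against 30.1% of all genes, and positive within both were 0. Within descriptions 1 to 8 the median was -0.1216, and within descriptions 9 to 16 it was 7e-04, with 23 of 47 negative. The median was thus negative in 3 of these 4 subsets, which are overlapping splits of the same 16 arrays and not independent of each other. Descriptions 1 to 8 hold HeCo 6 without wild type 1, and descriptions 9 to 16 hold wild type 1 without HeCo 6. The description ranges are also uneven in titles. Descriptions 1 to 8 hold wild type 2, 9, 11 and 12 beside HeCo 6, 8, 14 and 16. Descriptions 9 to 16 hold wild type 1, 3, 4 and 10 beside HeCo 5, 7, 13 and 15. Within them genotype is thus partly confounded with title range, and the part of either was not tested. Titles 1 to 8 hold both of these low arrays.

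Transcripts of the mitochondrial genome lay on the other side of 0. Of 7 measured genes 6 had a higher mean in HeCo and 0 passed the threshold, with a median difference of 0.186. COX2, a catalytic subunit of complex IV, ran from 10.39 through 10.75 to 11.13 in wild type and from 10.62 through 11.08 to 11.38 in HeCo (difference 0.28, SE 0.11, unadjusted p = 0.019, limma adjusted p = 0.673). HeCo 13 to 16 were its 4 highest arrays, from 11.19 upward, and HeCo 5 to 8 lay within the wild-type range. ND4, a proton-pumping subunit of complex I, ran from 14.13 through 14.36 to 14.51 in wild type and from 14.38 through 14.47 to 14.78 in HeCo (difference 0.16, SE 0.06, unadjusted p = 0.0208, limma adjusted p = 0.673). All 8 HeCo arrays were above its wild-type mean, though the groups overlapped. ND1, which forms the ubiquinone entry with the Q module, had 0.19 (SE 0.08, unadjusted p = 0.0224, limma adjusted p = 0.673), again with 8 of 8 HeCo arrays above the wild-type mean.

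**Figure D4:**
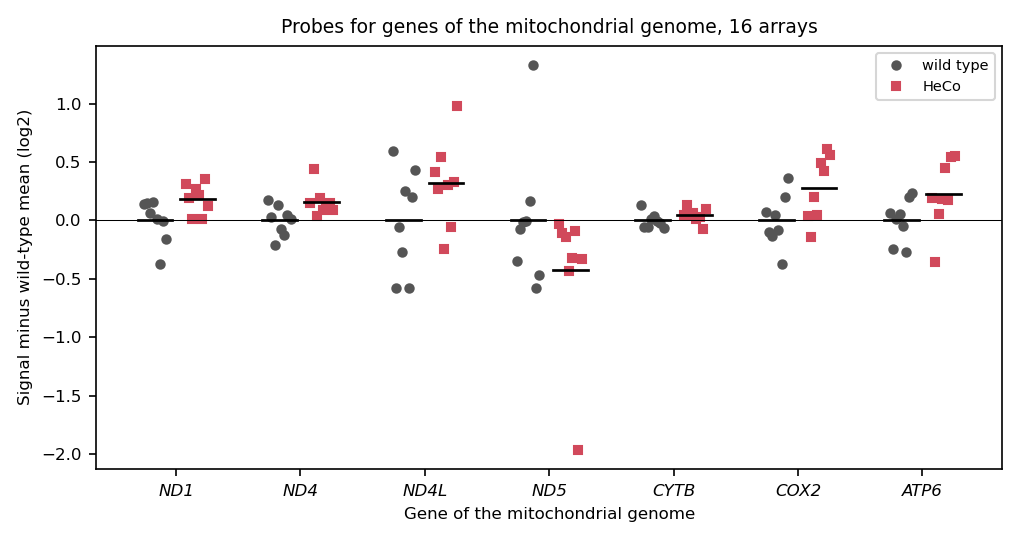
Log2 signal of 7 genes of the mitochondrial genome (x axis) on each array, relative to the wild-type mean of the gene (y axis); circles are wild type, squares HeCo, and bars group means. The HeCo mean is above the wild-type mean for all but ND5, for which wild type 10 (high) and HeCo 15 (low) stand far from the rest.

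The remaining genes of the mitochondrial genome were less even. ATP6, a subunit of ATP synthase, had 0.22 (SE 0.11), ND4L 0.32 (SE 0.18), CYTB of complex III 0.05 (SE 0.05) and ND5 -0.43 (SE 0.25). For ND5 the value was 9.07 on wild type 10 and 5.77 on HeCo 15, and all other arrays lay between 7.15 and 7.90. ND6 was detected on 0 arrays. The nuclear genome holds copies of mitochondrial sequence, and whether these probes also match them was not checked.

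Genes around the respiratory chain gave no call either. The 17 ATP synthase genes had a median of -0.030, 14 of them negative, with the smallest p-values for Atp5d (-0.14, SE 0.09), a subunit of the catalytic head's central stalk, and Atp5g2 (-0.21, SE 0.15), a subunit of the rotating ring. Structural subunits outside the 54 names were negative in 6 of 6 cases, among them Cox6b1 (-0.14, SE 0.10) and cytochrome c1, Cyc1 (-0.09, SE 0.07). Of the isoforms known mainly from other tissues, 5 were not detected. The probes of Cox4i2, Cox7b2, Cox8b, Cox8c and the testis cytochrome c gene Cyct were detected on 0 arrays. Cox6a2, the heart and muscle form, was detected on 6 wild-type and 3 HeCo arrays (difference -0.18, SE 0.12). Cox7a1 (difference -0.07, SE 0.11) and 1 probe of Cox6b2 (difference -0.22, SE 0.14) were detected on all arrays. That Cox6b2 probe is dim, and the other Cox6b2 probe was detected on 0 arrays.

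Assembly factors, which build the complexes without staying in them, included the lowest unadjusted p-values of the pathway. Sdhaf2, which attaches flavin to the catalytic subunit of complex II, ran from 7.87 through 8.00 to 8.16 in wild type and from 8.08 through 8.21 to 8.36 in HeCo (difference 0.21, SE 0.06, unadjusted p = 0.00436, limma adjusted p = 0.509). Ndufaf4, a complex I assembly factor, ran from 8.99 through 9.22 to 9.58 in wild type and from 9.30 through 9.47 to 9.69 in HeCo (difference 0.23, SE 0.08, unadjusted p = 0.00898, limma adjusted p = 0.604). All 8 HeCo arrays were above the wild-type mean for both, with overlap of the groups, and neither passed. Another complex I factor, Ndufaf1, had 0.13 (SE 0.07), and Coa3 of complex IV assembly had -0.12 (SE 0.08). The medians were 0.0382 over 11 complex I assembly factors and -0.046 over 23 of complexes II to IV.

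Among 13 measured regulators of mitochondrial biogenesis the median was 0.0258 and 0 passed. Gabpa, the DNA-binding subunit of the ETS factor named above, had 0.26 (SE 0.11, unadjusted p = 0.0204, limma adjusted p = 0.673) with 7 of 8 HeCo arrays above the wild-type mean. Its value rests on 1 dim probe, with log2 signals from 5.14 to 6.12. The coactivator Pprc1 had -0.11 (SE 0.07). The 12 tricarboxylic acid cycle genes had a median of -0.00611, with -0.10 (SE 0.06) for Idh3b and -0.08 (SE 0.05) for Idh3g, subunits of isocitrate dehydrogenase. In glycolysis 13 of 14 genes were negative with a median of -0.059. Eno2, the neuronal enolase, had -0.23 (SE 0.08, unadjusted p = 0.00965, limma adjusted p = 0.612) and Aldoa -0.21 (SE 0.09, unadjusted p = 0.0391, limma adjusted p = 0.692).

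Ribosomal protein genes shared the small lean of the respiratory chain, with 42 of 50 negative and a median of -0.0515. Rps4l had -0.20 (SE 0.11) and Rpl13a -0.15 (SE 0.10). Markers of cell types were set beside these values. Neuronal markers had a mean of 0.03 in HeCo relative to wild type (5 of 7 measured; -0.07 to 0.14 on wild-type and -0.10 to 0.11 on HeCo arrays), and radial glia markers had -0.12 (6 of 7; -0.10 to 0.08 and -0.33 to 0.08). The median difference over these 6 was -0.0404, and the most negative was that of Hes5, a Notch effector (-0.49, SE 0.10, limma adjusted p = 0.0804). Meningeal markers had 0.21 (5 of 6; -0.46 to 0.42 and 0.02 to 0.42), and erythroid markers 0.09 (3 of 7; -0.27 to 0.27 and -0.21 to 0.69). Endothelial markers had 0.03 (4 of 5), microglial markers 0.04 (6 of 6), choroid plexus markers 0.07 (3 of 4) and skeletal muscle markers -0.08 (2 of 6). The part of cell composition in the respiratory chain values was not tested.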

How the data were processed

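Total RNA of 16 mouse brain samples had been amplified to biotin-labelled cRNA and hybridised to Illumina bead arrays, per the labels' protocols. The deposited table holds a signal for each probe and array, an intensity on a linear scale without visible normalization, and the authors' detection p-value beside it. Per the submitters' processing notes GenomeStudio was used, its version being not given in the sources used here. Intensities in the deposited series matrix match a quantile normalization of these signals within 0.004741 (log2), and they served as an alternative.

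Background correction and quantile normalization were done with neqc (offset 16, controls inferred from the detection p-values) in limma 3.58.1 under R 4.3.3, and signals were put on the log2 scale. Of 45281 probes, 18532 were kept, those detected (p under 0.05) on 8 or more of 16 arrays. Symbols came from the platform annotation and were updated through Entrez identifiers for 34807 probes found in a RefSeq table of GRCm38.p6. The probe with the highest mean stood for a gene with several, which leaves the others out of the counts. HeCo and wild type, grouped by title, were compared with lmFit and eBayes (mean-variance trend, no covariate) over all kept probes, and two-sided p-values were adjusted by the Benjamini-Hochberg method over 10624 genes (threshold 0.05). Differences are HeCo minus wild type unless said otherwise. The procedure was tested on simulated data. Alternatives changed the background correction, normalization, detection filter, probe choice, variance model, array weights and the arrays used. Figures were drawn with Python 3.11.15 and matplotlib 3.10.9.

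The gene names, the lists set beside them and the rule for named genes were chosen with earlier results of these data known. Named are any gene past the threshold, the 3 with the smallest p in each module or complex, Cycs and genes without a kept probe. Also named are the 3 with the largest and the 2 with the smallest SD in wild type. So are the 2 with the smallest p of each other list, apart from the lists of cell-type markers. Marker lists are given as means, and of their genes Hes5 alone is named. Genes named for the title term, for single arrays or for the mitochondrial genome beyond this rule were chosen after their values were seen.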

Additional observations from a re-analysis of the deposited data

Results flagged for a closer look

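The named genes and the means of the complexes, in each genotype, gave 58 sets of 8 arrays. Of these sets 8 had a single array far from the rest, where chance gives about 1 in 20. The sets share arrays and genes, and some genes were named for a large SD in wild type. The count therefore does not show an excess over that rate. On wild type 1 the log2 signal of Ndufv3 was 11.933, with the next array at 12.488, and that of Cox5b was 12.744, with the next at 13.108. Cycs was high on the same array, at 11.789, with the next at 11.526. The mean of the complex IV genes on wild type 1 was -0.31 relative to the wild-type mean, with the next array at -0.055. On HeCo 6 Ndufv3 was 11.84, with the next HeCo array at 12.288, and Ndufb2 was 6.077, with the next at 6.925. The complex IV mean on HeCo 6 was -0.436, with the next HeCo array at -0.133. HeCo 15 was low for Uqcrc1, at 10.924, with the next HeCo array at 11.275.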

How the results depend on the processing

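Over 33 alternative settings, 17 of them other than leaving out 1 array, 0 respiratory chain genes passed the threshold, and the lowest limma adjusted p in any of them was 0.513. The count over all genes was 6 and moved to 10 with the mean of kept probes, 14 with each probe singly, 1 and 2 within titles 1 to 8 and 9 to 16, 2 and 1 within descriptions 1 to 8 and 9 to 16, and 2 to 7 with 1 array left out. The median over the 47 genes ran from -0.1042 (without wild type 1) to -0.0266 (without HeCo 6; -0.0426 without wild type 10) with 1 array left out and from -0.1216 to 7e-04 over all settings, the latter within descriptions 9 to 16, where 23 of 47 genes were negative. The count of higher genes in titles 9 to 16 ran from 10 (without HeCo 14) to 20 (without HeCo 15) with 1 array left out and was 22 with array weights, where 5.11% of all genes were higher. The 1418 values compared were of 43 named genes, none of which passed the threshold between genotypes. Of these values 49 changed sign, and the cause was not tested. Within descriptions 9 to 16 these were Ndufa12 (0.0536), Ndufv3 (0.0013), Ndufa1 (0.0253), Sdhb (0.0247), Uqcrh (0.0674), Cox5b (0.0338), Cox6a1 (0.0523) and Cycs (-0.0181). Within descriptions 1 to 8 they were Sdhd (-0.1554), Uqcrc1 (0.0185), Ndufb2 (-0.1138) and Rps4l (0.0204). Within titles 1 to 8 they were Sdhd (-0.0568), Uqcrq (-0.066), Uqcrc1 (0.0399), Cycs (-0.0638), Ndufb2 (-0.1231) and Pprc1 (0.0203), and within titles 9 to 16 Sdhc (0.0093), Sdhb (0.058) and Ndufb11 (0.0066). After median scaling they were Sdhc (0.0198), Sdhb (0.0475), Uqcrc1 (0.0015) and Ndufb11 (0.0196), where the median over all genes was 0.0483. Sdhb was 6e-04 without HeCo 7 and HeCo 16 and 0.025 without wild type 1 and HeCo 6, a pair chosen after seeing the data. With 1 array left out, Sdhb ran from -0.0447 to 0.0168, Sdhd from -0.0534 to 0.0618, Cycs from -0.0214 to 0.0486, Ndufb2 from -0.0024 to 0.2473 and Ndufb11 from -0.126 to 0.0255. No paired analysis was possible because the title numbers are not shared between the groups. Dim probes limit what the signal over background can show for Uqcrq, Ndufb2, Ndufb4, Ndufb9, Ndufb11 and Sdhd.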
